A study of Mus musculus with 14 samples.

Results

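Transcripts of 4T1 cells that carried sh75, a short hairpin RNA against Cnot7, were compared with those of 4T1 cells that carried a scrambled hairpin (shScramble). The samples were chosen by their treatment labels, which gave 3 sh75 and 3 shScramble samples of 14 in the series. All probe sets with exactly 1 gene symbol were described, 21789 of 35556. 4T1 is a mammary tumor cell line from a BALB/c mouse, and every sample of the series came from it. According to the methods, the hairpins were delivered by lentivirus and carrying cells were selected with puromycin. The remaining samples were 2 with a second hairpin against the same gene (sh74), 3 with over-expression of human FLAG-tagged CNOT7 and 3 with the empty over-expression vector (vector control), both selected with blasticidin. The design text calls the samples of a group biological replicates but names no cultures, clones or pools. The p-values below therefore measure only the spread between these samples, which may be technical. Replicate numbers here only name samples and pair none.

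RNA was hybridized to Affymetrix Mouse Gene 1.0 ST arrays, 1 sample per array, and a value below is an RMA log2 intensity, so that a difference of 1 is a doubling of signal. Array medians lay between 6.31 and 6.38. Olfactory receptor genes, which these cells should not express, had array medians of 3.93 to 3.98, and 90% of their probe sets lay below 4.90. Across genes, the median Pearson correlation was 0.989 over the 6 pairs of samples within a group and 0.988 over the 9 pairs between sh75 and shScramble. The labelled cell type was checked on epithelial and other markers. Krt18 lay between 11.76 and 12.29 and Cdh1, the epithelial cadherin, between 10.65 and 11.28 over the 6 samples, while Ptprc, the pan-leukocyte marker, lay between 4.49 and 4.73, below the olfactory limit. Of the mesenchymal markers, Vim lay at 10.28 to 13.02 and Fn1 at 12.06 to 12.73. Zeb1 lay at 5.28 to 5.57 and Cdh2 at 4.02 to 4.22. The epithelial genes Esrp1 and Cldn7 varied between samples, as given below.

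Messenger RNA is protected by a poly(A) tail, and its shortening, deadenylation, is usually the first and rate-limiting step of mRNA decay. The CCR4-NOT complex is the main cytoplasmic deadenylase. It is built on the scaffold protein Cnot1 and holds 1 nuclease of the DEDD family, Cnot7 or its paralog Cnot8, and 1 of the EEP family, Cnot6 or Cnot6l. RNA-binding proteins, the microRNA machinery and the Tob and Btg proteins bring the complex to its targets. A short hairpin RNA is cut to a guide strand that directs Argonaute to transcripts with a complementary site. A guide can also act like a microRNA on other transcripts that match its seed, bases 2 to 8.

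The guide strands of both Cnot7 hairpins are shown 5′ to 3′ because the genes below are set against both hairpins. Capitals mark the seed.
shCnot7-75: aACAAGTCtacattacaccgc
shCnot7-74: tAAGTACTgcagaatagaagg
Both guides were 21 bases long. They had the same base at 2 positions, their longest shared run was 4 bases, and their seeds, ACAAGTC for sh75 and AAGTACT for sh74, differed. Neither seed was that of any of 1738 mature mouse microRNAs in RefSeq (0 and 0 matches). The site complementary to the sh75 guide reads gcggtgtaatgtaGACTTGTt in the transcript, with the match to the seed in capitals, and that of the sh74 guide reads ccttctattctgcAGTACTTa. Both sites were derived from the guide sequences alone. No transcript, that of Cnot7 included, was searched for these sites or for seed matches.

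Cnot7 itself was measured first, since it checks the labels. Its log2 value was 7.52, 8.51 and 8.07 in the 3 sh75 samples, against 10.44, 10.33 and 10.20 in the 3 shScramble samples. All sh75 samples lay below all shScramble samples. Cnot7 fell by 2.29 (SE 0.26, limma adjusted p = 0.00911), which left 20.4% of the shScramble signal. The spread among sh75 samples, 8.03 ± 0.50 (SD, n = 3), was wider than among shScramble samples, 10.32 ± 0.12 (SD, n = 3). An exact permutation test over the 6 samples gave p = 0.1, the smallest value that 20 splits allow (two-sided). In a culture measured as a whole, less transcript in every cell and fewer cells with the transcript cannot be told apart. Without shScramble replicate 1 the adjusted p was 0.0546 and without replicate 2 it was 0.0545, so that the call was lost without either of these control arrays. It was kept in the other 4 fits that left out 1 array.

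The other nucleases of the complex did not pass the test. Cnot8 had 8.97, 9.15 and 9.0 in sh75 samples and 8.72, 8.97 and 9.0 in shScramble samples, which overlapped (change 0.15, SE 0.11, adjusted p = 0.788). Cnot6 lay at 9.98, 9.94 and 9.97 in sh75 samples and at 10.25, 10.30 and 10.34 in shScramble samples, a change of -0.34 (SE 0.07, adjusted p = 0.193). Those 2 groups did not overlap, and the replicates of each lay within 0.1 of each other. Cnot6l changed by 0.06 (SE 0.15, adjusted p = 0.949) with overlapping samples.

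Among 8 scaffold and accessory subunits, 0 were called. Cnot9, which docks RNA-binding proteins and the microRNA effector Tnrc6, came closest, with 9.91, 9.93 and 9.85 in sh75 samples against 10.58, 10.51 and 10.58 in shScramble samples. The groups were apart, and the change of -0.66 (SE 0.11) had an adjusted p of 0.0620. Cnot11 and Cnot10, which bind the amino-terminal part of Cnot1, had values lower by -0.32 (adjusted p = 0.362) and -0.19 (adjusted p = 0.512) without overlap. Tnks1bp1, a protein that copurifies with the complex, had 8.92, 8.78 and 8.84 in sh75 samples and 8.56, 8.46 and 8.50 in shScramble samples (change 0.34, adjusted p = 0.370). In all, 3 of 8 had lower and 1 of 8 had higher values without overlap, where 6.76% of all probe sets were lower and 6.71% higher without overlap.

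**Figure D1:**
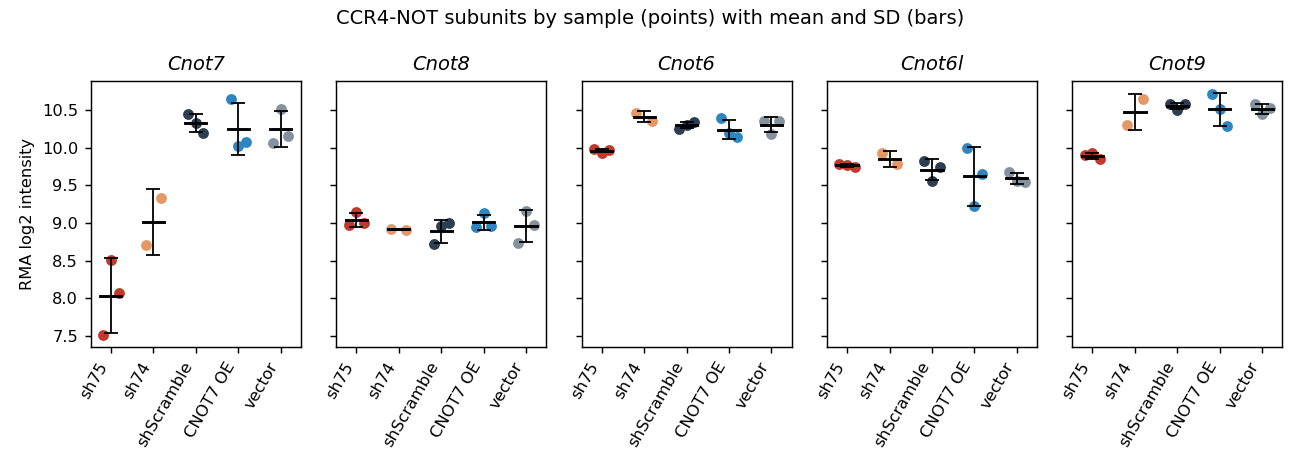
RMA log2 intensity (y axis) of 5 CCR4-NOT subunits in each sample (points) by group (x axis; OE, over-expression), with the group mean (long bar) and SD (whiskers). The 3 sh75 samples lie at 7.52 to 8.51 for Cnot7, below the 3 shScramble samples at 10.20 to 10.44, and lie below them for Cnot6 and Cnot9 as well, where the adjusted p was 0.193 and 0.0620.

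Across all genes, 20 probe sets passed an adjusted p of 0.05 in limma, 0.0918% of those tested. Of these, 15 were lower with sh75 (0.0688%) and 5 were higher (0.0229%), each from a different gene symbol. By contrast 1800 probe sets (8.26%) had an unadjusted p under 0.05, and the groups did not overlap for 2935 (13.5%). The median change over all probe sets was 0.00. The number of calls depended on single arrays. It was 6, 9 and 22 without sh75 replicate 1, 2 and 3, and 7, 6 and 10 without shScramble replicate 1, 2 and 3. Hipk3, Dennd10, Tmem170b and Arl15 were called in all 6 of those fits, whereas Epha1 and Inpp4b were called in 0 of them. Another 9 were called in 1 of the 6 fits, namely Dnajb12, Dnmt3a, Eogt, Lnpk, Maml1, Mob1b, Polh, Rbm41 and Stard5. The 20 genes comprised kinases and phosphatases, small GTPase regulators, chromatin enzymes, Notch and Hippo components, proteins of the endoplasmic reticulum and lysosome, and a DNA polymerase. Gene lists below were chosen with earlier results of these data known. Counts of called members are read beside 0.0918% over all probe sets. That a list holds a call is not a result about that list.

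**Figure D2:**
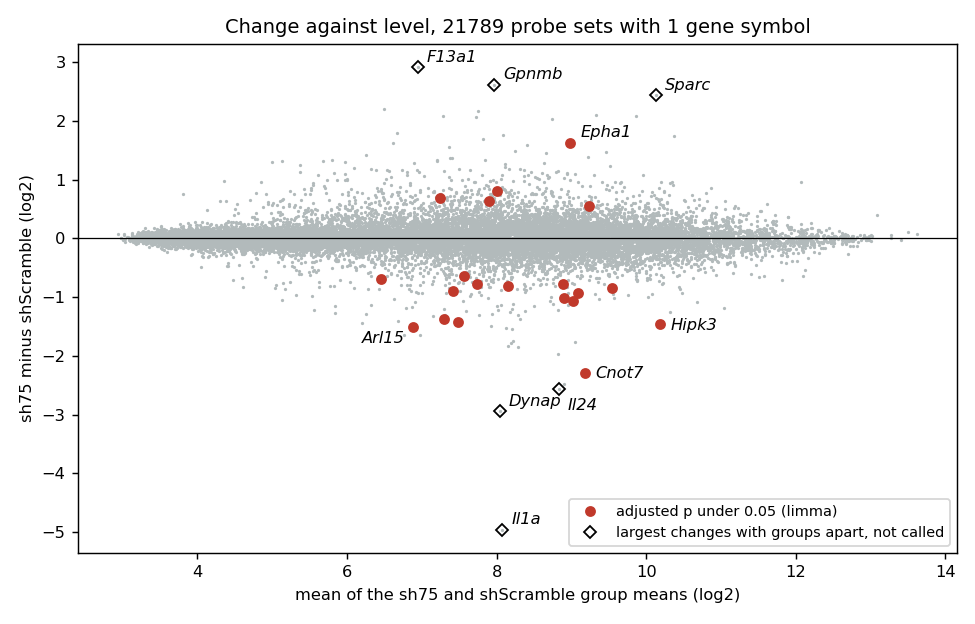
Change of each probe set with 1 gene symbol (y axis, sh75 minus shScramble, log2) against the mean of both group means (x axis, log2). Red points are the 20 calls, 15 below and 5 above 0, and open diamonds are the 3 largest changes in each direction with groups apart, which were not called.

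The lowest p-value belonged to Hipk3, a homeodomain-interacting protein kinase. It had 9.188, 9.644 and 9.530 in sh75 samples, against 10.874, 10.882 and 11.001 in shScramble samples. All sh75 samples were lower by more than 1 log2 unit, and Hipk3 fell by 1.47 (SE 0.12, adjusted p = 0.00113). Of 9 HIPK and DYRK kinases measured it was the 1 called. Dyrk1a had values higher by 0.29 (adjusted p = 0.374) without overlap, Dyrk1b lay at 9.03, 9.61 and 8.40 in sh75 samples and at 7.17, 7.98 and 8.53 in shScramble samples (change 1.12, adjusted p = 0.467), and the list had a median of 0.07. Leaving out sh75 replicate 3 gave a median of 0.01, and leaving out shScramble replicate 1 or 3 gave 0.04 or 0.02.

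Small GTPases and their regulators held 2 of the strongest calls. Arl15, an Arf-like GTPase, had 5.81, 6.30 and 6.27 in sh75 samples and 7.48, 7.71 and 7.70 in shScramble samples, and fell by 1.50 (SE 0.15, adjusted p = 0.00394). It was the 1 of 13 Arf and Arf-like GTPases measured that was called, beside a list median of 0.07. Dennd10, of the DENN domain family whose members activate Rab GTPases, had 8.40, 8.51 and 8.55 in sh75 samples and 9.65, 9.50 and 9.50 in shScramble samples, and fell by 1.07 (SE 0.09, adjusted p = 0.00113). It was the 1 called of 19 DENN domain genes, which had a median of 0.09. For both genes the gap between the groups was wider than the range within either.

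Several membrane proteins fell. Tmem170b, a small transmembrane protein, had 6.91, 6.63 and 6.81 in sh75 samples and 8.12, 8.21 and 8.28 in shScramble samples, and fell by 1.42 (SE 0.14, adjusted p = 0.00394). Gpr137b, an integral lysosomal membrane protein linked to mTORC1 in human cells, had 7.72, 7.82 and 7.70 in sh75 samples and 8.57, 8.80 and 8.32 in shScramble samples, a fall of 0.82 (SE 0.10, adjusted p = 0.0163). Its pseudogene Gpr137b-ps fell by 0.85 (SE 0.10, adjusted p = 0.00911), with 9.11, 9.11 and 9.12 in sh75 samples. Array probes may not tell a gene from its near-identical copy, so these 2 calls are uncertain as separate signals and may be 1. Gpr137b was the 1 call among 36 lysosome and autophagy genes. The list leaned the other way, with 27 of 36 values higher (median 0.16, against 49.8% higher over all probe sets), among them Atg12 (change 0.57) and the autophagy kinase Ulk1 (0.71), neither past the test (adjusted p = 0.476 and 0.558). That median was 0.04 without sh75 replicate 2 and 0.09 without shScramble replicate 1.

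Lnpk, or lunapark, which stabilizes junctions between tubules of the endoplasmic reticulum, had 7.34, 7.18 and 7.49 in sh75 samples and 8.27, 8.11 and 7.98 in shScramble samples, a fall of 0.78 (SE 0.12, adjusted p = 0.0370). Dnajb12, an HSP40 co-chaperone anchored in the same membrane, was called in the other direction. It had 9.51, 9.51 and 9.49 in sh75 samples and 8.97, 8.99 and 8.91 in shScramble samples, and rose by 0.55 (SE 0.07, adjusted p = 0.0163). The sh75 arrays agreed within 0.1 for this gene. Among 39 HSP40 genes it was the 1 called. Dnajc9, a histone co-chaperone, had values lower by -0.42 (adjusted p = 0.190) and Dnajc14 values higher by 0.50 (adjusted p = 0.377), both without overlap. Of 26 genes of folding and quality control in the endoplasmic reticulum 0 were called, and the stress sensor Atf6 had 9.06, 9.35 and 9.24 in sh75 samples against 9.48, 9.63 and 9.90 in shScramble samples (change -0.45, adjusted p = 0.374).

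Inpp4b, an inositol lipid phosphatase, had 6.36, 6.68 and 6.78 in sh75 samples and 8.29, 7.98 and 7.66 in shScramble samples, and fell by 1.37 (SE 0.20, adjusted p = 0.0370). The groups lay apart, but the call was lost without any 1 of the 6 arrays. It was the 1 called among 43 phosphoinositide kinases and phosphatases, with a list median of 0.06, which was 0.04 without sh75 replicate 2, sh75 replicate 3 or shScramble replicate 1. In the same list, Inpp5a, which dephosphorylates soluble inositol phosphates, had 7.74, 7.99 and 7.88 in sh75 samples and 8.68, 8.37 and 8.33 in shScramble samples (change -0.59, adjusted p = 0.148). The lipid kinase Pip5k1b had 6.34, 5.96 and 7.07 against 5.07, 5.16 and 5.17 (change 1.33, adjusted p = 0.297), and Pip5k1c had values higher by 0.39 (adjusted p = 0.354). None of these 3 overlapped between the groups, as was the case for 6 higher and 6 lower of the 43 members, beside 6.71% higher and 6.76% lower over all probe sets.

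Chromatin and DNA enzymes were called in both directions. Kat2b, the histone acetyltransferase PCAF, had 6.91, 7.14 and 6.84 in sh75 samples and 7.63, 7.99 and 7.95 in shScramble samples, and fell by 0.89 (SE 0.10, adjusted p = 0.0103). Dnmt3a, a de novo DNA methyltransferase, had 8.33, 8.02 and 8.27 in sh75 samples and 7.62, 7.48 and 7.64 in shScramble samples, and rose by 0.63 (SE 0.09, adjusted p = 0.0303). Neither pair of groups overlapped. Of 15 DNA methylation genes Dnmt3a was the 1 called, and Tet1, which oxidizes methylcytosine, had values higher by 0.76 without overlap (adjusted p = 0.553). Polh, the translesion DNA polymerase eta, had 8.45, 8.41 and 8.65 in sh75 samples and 9.31, 9.16 and 9.36 in shScramble samples, a fall of 0.77 (SE 0.10, adjusted p = 0.0233).

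Notch and Hippo signaling each held calls. Maml1, a Mastermind co-activator of the Notch transcription complex, had 8.40, 8.41 and 8.40 in sh75 samples and 7.53, 7.39 and 7.88 in shScramble samples, and rose by 0.80 (SE 0.11, adjusted p = 0.0303). Eogt, which attaches O-GlcNAc to EGF repeats of Notch in the endoplasmic reticulum, had 8.46, 8.60 and 8.79 against 9.57, 9.50 and 9.57, a fall of 0.93 (SE 0.14, adjusted p = 0.0370). The spread lay almost wholly in shScramble for Maml1 and in sh75 for Eogt. Of 34 Notch pathway genes these were the 2 called. Rfng, the Radical fringe glycosyltransferase that modifies Notch, had 8.12, 8.35 and 8.71 in sh75 samples and 7.26, 7.25 and 7.76 in shScramble samples (change 0.97, adjusted p = 0.119). Adam10, the metalloprotease that sheds the Notch ectodomain, had values lower by -0.71 (adjusted p = 0.322), also without overlap.

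Mob1b, an activating subunit of the LATS kinases in the Hippo pathway, had 8.32, 8.27 and 8.57 in sh75 samples and 9.52, 9.39 and 9.30 in shScramble samples, and fell by 1.02 (SE 0.15, adjusted p = 0.0370). It was the 1 called among 26 Hippo genes, whose values split 13 higher and 13 lower. The scaffold Sav1 had 10.31, 10.51 and 10.45 in sh75 samples and 9.67, 9.95 and 10.12 in shScramble samples (change 0.51, adjusted p = 0.204). Vgll4, which competes with YAP for TEAD factors, had values higher by 0.52 and Tead1 values lower by -0.28, neither past the test (adjusted p = 0.512 and 0.570).

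The largest rise among the calls was that of Epha1, an Eph receptor tyrosine kinase of epithelial cells. It had 9.80, 9.60 and 9.99 in sh75 samples, against 8.12, 8.26 and 8.12 in shScramble samples. The groups were separated by more than 1 log2 unit, and Epha1 rose by 1.63 or 3.09-fold (SE 0.25), with an adjusted p of 0.0497 just inside the threshold. Of 13 Eph receptors it was the 1 called, beside Ephb4 with 9.66, 9.92 and 9.73 in sh75 samples and 9.15, 9.25 and 9.45 in shScramble samples (change 0.49, adjusted p = 0.467). Epha2 had a change of -0.23 with overlap (adjusted p = 0.696). Among 8 ephrin ligands 0 were called, and 6 had higher values with a median of 0.28. Efna2 was the 1 that was higher without overlap (change 0.36, adjusted p = 0.425). Efnb3 was the 1 that was lower without overlap (change -0.10, adjusted p = 0.757). Over all probe sets 6.71% were higher and 6.76% lower without overlap.

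The 3 remaining calls were Stard5, Rbm41 and Nfatc2ip. Stard5, a START domain lipid-binding protein, had 7.80, 7.56 and 7.41 in sh75 samples and 6.96, 6.87 and 6.88 in shScramble samples, and rose by 0.69 (SE 0.10, adjusted p = 0.0303). Rbm41, which has an RNA recognition motif, had 7.28, 7.07 and 7.37 in sh75 samples and 7.78, 7.95 and 7.89 in shScramble samples, a fall of 0.64 (SE 0.09, adjusted p = 0.0305). In both genes every sh75 sample lay on 1 side of every shScramble sample. Nfatc2ip, a protein with SUMO-like domains that binds the transcription factor NFATc2, had 6.05, 6.01 and 6.26 in sh75 samples and 6.76, 7.01 and 6.62 in shScramble samples, a fall of 0.69 (SE 0.10, adjusted p = 0.0370). Stard5 was the 1 call among 15 START domain genes, whose median was -0.02.

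The genes called with sh75 were set against their values with the other hairpin. Cnot7 had 8.71 and 9.33 in the 2 sh74 samples, a change of -1.31 from shScramble (adjusted p = 0.279), and the difference between the hairpins for Cnot7, -0.98 (SE 0.29), had the same adjusted p. Of the 20 genes, 13 differed between sh75 and sh74 at an adjusted p under 0.05, where 0.174% of all probe sets did, and 7 did not pass. The 20 genes were selected on the same sh75 samples, so this count is not independent of the selection. Arl15 had 5.81, 6.30 and 6.27 with sh75 and 8.09 and 7.78 with sh74, against 7.48, 7.71 and 7.70 with shScramble. Its difference between the hairpins was -1.81 (SE 0.17, adjusted p = 0.00151). Epha1 had 9.80, 9.60 and 9.99 with sh75, against 7.68 and 8.09 with sh74, a difference of 1.91 (SE 0.28, adjusted p = 0.0360). In both genes the sh74 samples lay beyond the shScramble samples, on the side away from sh75.

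Gpr137b differed most certainly between the hairpins. It had 7.72, 7.82 and 7.70 with sh75, 9.56 and 9.62 with sh74, and 8.57, 8.80 and 8.32 with shScramble. It was therefore lower than shScramble with sh75 and higher with sh74 (change 1.03, SE 0.12, adjusted p = 0.0229). The difference of sh75 from sh74 was -1.85 (SE 0.12), with an adjusted p of 0.000109. With sh74 against shScramble, 0.00918% of probe sets were called. The 3 sh75 samples were also set against the 3 vector control samples, which had another vector and another drug. Against these, 0.0688% of all probe sets were called and 11 of the 20 genes passed, among them Cnot7 (-2.21, adjusted p = 0.0129), Hipk3 (-1.18, adjusted p = 0.00741) and Epha1 (1.77, adjusted p = 0.0393). Gpr137b was not among the 11, with a difference of -0.35 (adjusted p = 0.254). These differences use the same sh75 samples as the calls.

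**Figure D3:**
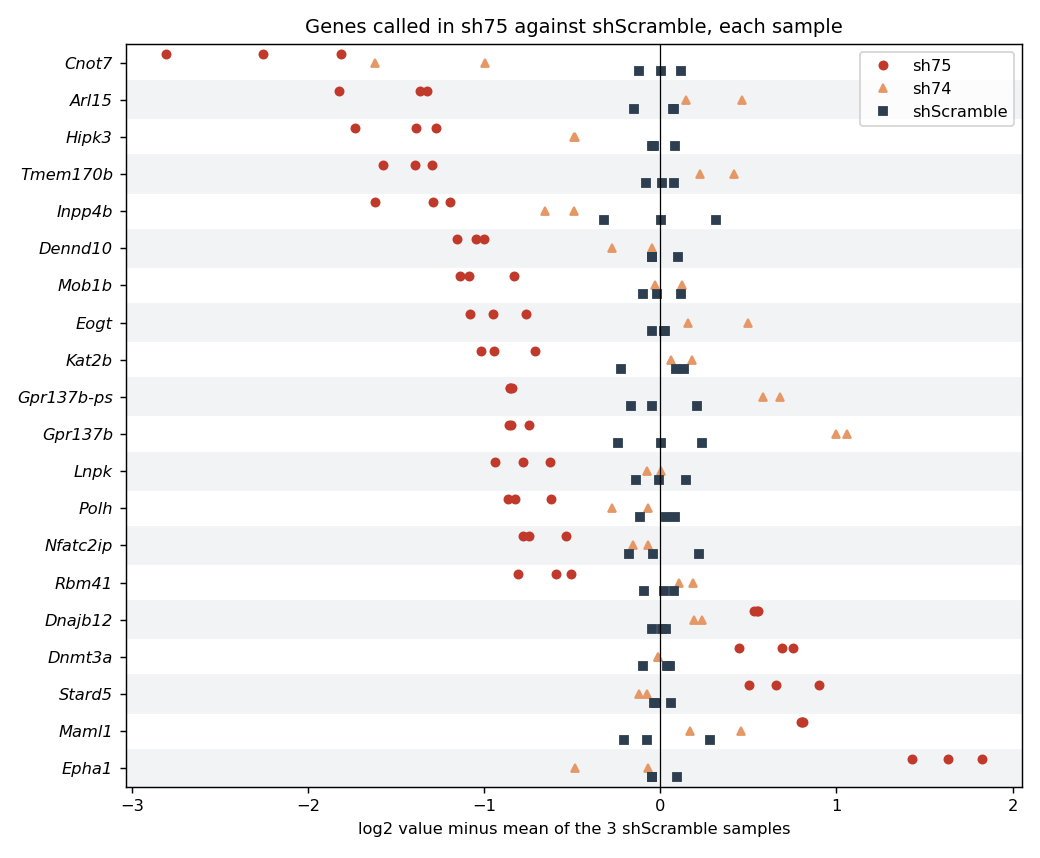
Log2 value of each sample minus the mean of the 3 shScramble samples (x axis) for the 20 called genes (y axis), with sh75 as circles, sh74 as triangles and shScramble as squares. Every sh75 sample lies outside the shScramble samples for each gene, whereas both sh74 samples of Arl15, Tmem170b, Eogt, Gpr137b, Gpr137b-ps, Rbm41, Stard5 and Epha1 lie on the opposite side of shScramble.

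Just outside the threshold were genes whose groups also lay apart. On the higher side, F13a1, the catalytic subunit of the transglutaminase coagulation factor XIII, had 8.95, 7.99 and 8.28 in sh75 samples and 5.28, 4.99 and 6.21 in shScramble samples. Its change of 2.91 (SE 0.46) had an adjusted p of 0.0536, and it was the largest higher value of any gene with groups apart. Furin, a proprotein convertase (change 0.42, adjusted p = 0.0554), Map2k4, a kinase upstream of JNK (0.53, adjusted p = 0.0620), and Ado, a thiol dioxygenase (0.48, adjusted p = 0.0873), followed, with Rfng as given above. On the lower side stood Lipg, endothelial lipase, with 8.36, 8.17 and 8.13 in sh75 samples and 9.38, 9.57 and 9.33 in shScramble samples (change -1.21, adjusted p = 0.0524). Arl2bp, which binds the GTPase Arl2 (-1.26, adjusted p = 0.0620), Cnot9, Fam126b of the hyccin family (-1.40, adjusted p = 0.0677) and the cyclin Y relative Ccnyl1 (-1.29, adjusted p = 0.0853) came next.

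The largest differences by size were not called, and in several of these genes the samples of a group varied widely. Il1a, the cytokine interleukin 1 alpha, had 6.52, 4.77 and 5.49 in sh75 samples, against 12.22, 12.29 and 7.14 in shScramble samples. One control array lay about 5 log2 units below the other 2, and the change of -4.96 (SE 1.73) had an adjusted p of 0.467. With sh74, Il1a was 11.27 and 11.76. Sparc, a secreted matrix glycoprotein, had 11.12, 11.43 and 11.49 in sh75 samples and 9.82, 5.81 and 11.12 in shScramble samples. Its change of 2.43 (adjusted p = 0.617) was 0.88 without shScramble replicate 2. Gpnmb, a transmembrane glycoprotein of lysosomes and melanosomes, had 8.65, 10.09 and 9.08 in sh75 samples and 5.65, 5.89 and 8.44 in shScramble samples (change 2.61, adjusted p = 0.592). Dynap, a dynactin-associated membrane protein (-2.94, adjusted p = 0.189), and the cytokine Il24 (-2.56, adjusted p = 0.374) were lower without overlap. In all, 44 probe sets were higher and 38 lower at least 2-fold without overlap.

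Epithelial and mesenchymal genes also varied widely within each group. Esrp1, the epithelial splicing regulator, had 10.79, 6.50 and 6.49 in sh75 samples and 10.76, 10.56 and 5.21 in shScramble samples, and Cldn7, a tight junction claudin, had 10.19, 5.85 and 6.79 against 10.08, 10.52 and 5.83. The same samples were high for both, sh75 replicate 1 and shScramble replicates 1 and 2. Each sample received a score, the mean of 36 mesenchymal genes minus the mean of 43 epithelial genes after centering every gene. It was -0.37, 0.62 and 0.60 in sh75 samples (mean 0.28 ± 0.57, SD, n = 3) and -0.48, -0.76 and 0.49 in shScramble samples (mean -0.25 ± 0.66, SD, n = 3), so the groups overlapped but were not balanced. Sample titles end in c4.2, c5.1 and c5.2 for sh75 and in c2.2, c4.1 and c5.2 for shScramble. The number before the point was thus 4, 5 and 5 for sh75 and 2, 4 and 5 for shScramble. The 3 samples numbered 5 were those with a score above 0. What the numbers before and after the point stand for was not given. Whether the 2 sh75 samples numbered 5 came from separate cultures is therefore unknown, and n = 3 counts arrays. With the number as a block, 2 probe sets were called among all samples and 0 among the 6 samples (limma, 1535 at an unadjusted p under 0.05). With the score as a covariate 17 probe sets were called and 12 of the 20 genes stayed called.

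Epithelial genes had lower values with sh75 in 33 of 43 cases (median -0.21, against 50.2% lower and a median of 0.00 over all probe sets), and 0 were called. That median was -0.12 and -0.11 without sh75 replicate 3 and shScramble replicate 1, and -0.35 and -0.39 without sh75 replicate 1 and shScramble replicate 3. Of the 43, 4 were lower without overlap, where 6.76% of all probe sets were, among them the keratin Krt7 with 11.73, 11.52 and 11.53 in sh75 samples and 12.12, 11.84 and 12.04 in shScramble samples (change -0.41, adjusted p = 0.322), and occludin, Ocln (-0.56, adjusted p = 0.568). The serine protease Prss8 had values higher by 0.70 with overlap (adjusted p = 0.501). Mesenchymal genes had a median of 0.03 (0.05 without shScramble replicate 1 and 0.02 without sh75 replicate 3) with 23 of 36 values higher. Of the 36, 4 were higher and 1 was lower without overlap, where 6.71% and 6.76% of all probe sets were. Among the 4 were Twist1, a transcription factor of mesenchymal cells (change 0.84, adjusted p = 0.616), and Nt5e, the ecto-nucleotidase CD73 (0.66, adjusted p = 0.600).

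Cholesterol synthesis stood out by direction but not by sample. Of its 20 measured genes 19 had lower values with sh75, with a median of -0.42, and 0 were called. Over all probe sets 50.2% were lower in value. The list median with sh74 against shScramble was -0.45. The mean centred level of the list was 0.41, -0.07 and -0.47 in sh75 samples and 0.36, 0.32 and 0.35 in shScramble samples. It was -0.43 and 0.39 in sh74 samples and 0.09, -0.25 and 0.19 in vector control samples. One sh75 sample lay above all shScramble samples and the other 2 lay below, so the groups overlapped. The median change with sh75 was -0.61 without sh75 replicate 1 and -0.18 without replicate 3. Lss, lanosterol synthase, had 10.32, 9.66 and 9.10 in sh75 samples and 10.46, 10.36 and 10.28 in shScramble samples (change -0.67, adjusted p = 0.690). Sc5d, sterol desaturase (-0.44, adjusted p = 0.527), Pmvk, phosphomevalonate kinase (-0.39, adjusted p = 0.675), and Fdps, farnesyl diphosphate synthase (-0.45, adjusted p = 0.685), were lower without overlap. In all, 5 of the 20 genes were, where 6.76% of all probe sets were lower without overlap.

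Genes of cell division had lower values by small amounts. Of 35 mitosis and cytokinesis genes 32 were lower in value (median -0.16), 8 of them without overlap, and 0 were called. Over all probe sets 50.2% were lower in value and 6.76% lower without overlap. Kif23, a kinesin of the central spindle, had 10.66, 10.27 and 10.59 in sh75 samples and 11.10, 11.15 and 10.98 in shScramble samples (change -0.57, adjusted p = 0.0958). Its partner in the centralspindlin complex, Racgap1 (-0.33, adjusted p = 0.305), the contractile ring protein Anln (-0.30, adjusted p = 0.326) and the kinase Aurka (-0.29, adjusted p = 0.590) were lower without overlap as well. The level of the whole list overlapped between the groups, and its median was -0.09 without sh75 replicate 2. Of 42 DNA replication genes 36 were lower in value (median -0.14), and the level of the list was 0.02, -0.21 and -0.05 in sh75 samples against 0.04, 0.05 and 0.10 in shScramble samples, without overlap. The gap was narrow, and the median was -0.05 without sh75 replicate 2 and -0.09 without shScramble replicate 3. None of the members was called. Orc3, of the origin recognition complex (-0.31, adjusted p = 0.362), Rrm1, of ribonucleotide reductase (-0.26, adjusted p = 0.362), and Mcm3, of the replicative helicase (-0.42, adjusted p = 0.512), did not overlap.

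Among regulators of the G1 phase, 11 of 20 had higher values and 0 were called. Cdk6 had 9.27, 9.44 and 9.85 in sh75 samples and 10.44, 10.36 and 9.94 in shScramble samples (change -0.72, adjusted p = 0.209), whereas cyclin D3, Ccnd3, had values higher by 0.50 (adjusted p = 0.464) and Cdk2 values higher by 0.26 (adjusted p = 0.516). All 3 were apart between the groups. The antiproliferative Tob and Btg proteins, which tie Cnot7 and Cnot8 to transcripts, had a list level of 0.17, 0.17 and 0.17 in sh75 samples and 0.01, 0.05 and -0.08 in shScramble samples, without overlap. Btg2 had 6.84, 6.49 and 6.39 in sh75 samples and 6.18, 5.98 and 6.09 in shScramble samples (change 0.49, adjusted p = 0.364), Tob2 had values higher by 0.19 (adjusted p = 0.527) and Btg1 values higher by 0.20 with overlap (adjusted p = 0.684). Tob1 changed by -0.02 (adjusted p = 0.990) and Btg4, below the olfactory limit, by 0.02 (adjusted p = 0.960), both with overlap. The list had 5 measured genes, none called, and its median of 0.19 was 0.11 without sh75 replicate 3. Of the 5, 2 were higher and 0 lower without overlap, beside 6.71% and 6.76% over all probe sets.

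Antigen presentation by MHC class I had higher values in 13 of 14 genes, with a median of 0.24. Over all probe sets 49.8% were higher in value. The level of the list was 0.17, 0.21 and 0.14 in sh75 samples and -0.31, -0.16 and 0.05 in shScramble samples, without overlap, although 0 members were called. Such separation was not particular to this list, DNA replication or the Tob and Btg proteins. List levels were also apart for Notch pathway, DNA methylation, Arf and Arf-like GTPase and cytosolic ribosomal protein genes, and for the CCR4-NOT nucleases, which include Cnot7. Whether list levels separate more often than by chance was not tested. Tapbp, or tapasin, which loads peptide onto class I molecules, had 10.13, 9.83 and 10.00 in sh75 samples and 9.29, 9.30 and 9.49 in shScramble samples (change 0.63, adjusted p = 0.157). Erap1, the aminopeptidase that trims these peptides, had values higher by 0.64 with overlap (adjusted p = 0.455), and Pdia3, a disulfide isomerase of the loading complex, values higher by 0.16 without overlap (adjusted p = 0.619). Interferon response genes had higher values in 26 of 37 cases (median 0.09, and 0.04 to 0.20 when 1 array was left out, without sh75 replicate 3 and shScramble replicate 2), and their list level overlapped between the groups. The RNA sensor Ddx58 had 7.55, 7.80 and 7.95 in sh75 samples and 8.71, 8.68 and 8.35 in shScramble samples (change -0.81, adjusted p = 0.452), and Trim30a had 6.52, 6.50 and 6.49 against 5.65, 5.48 and 5.35 (change 1.01, adjusted p = 0.605).

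**Figure D4:**
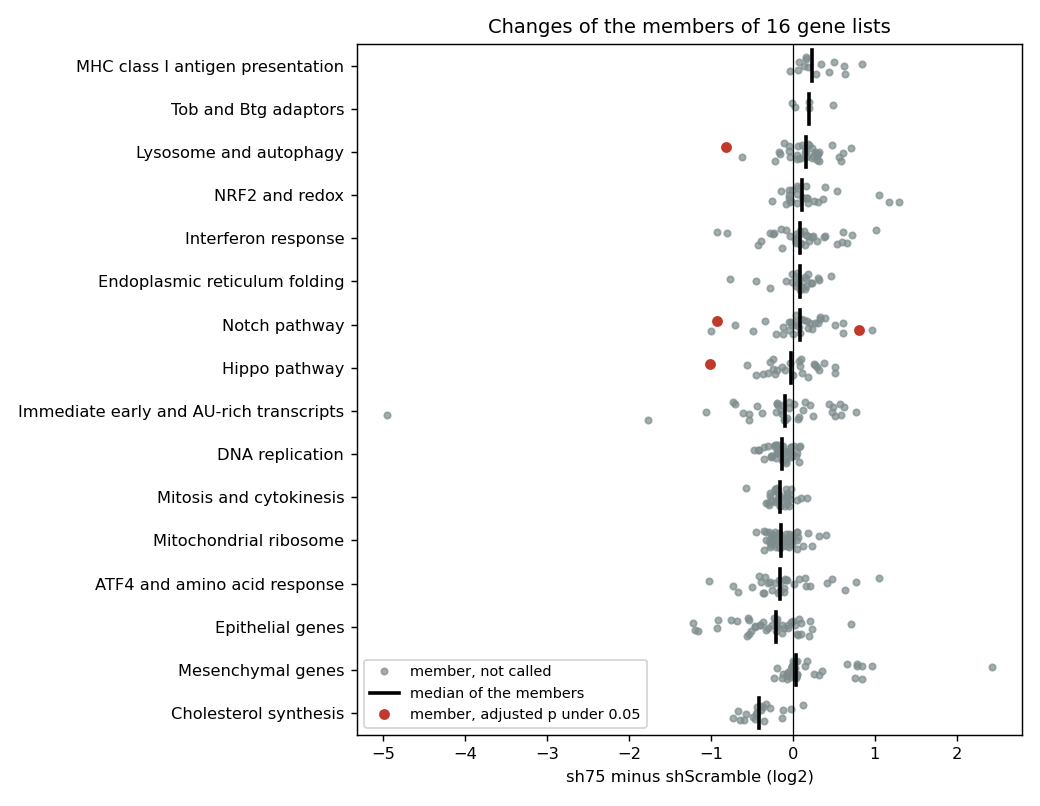
Change of each measured member (points, sh75 minus shScramble, log2, x axis) of 16 gene lists (y axis), with the list median as a black bar and called members in red. Members of cholesterol synthesis lie left of 0 in 19 of 20 cases (median -0.42) and those of MHC class I antigen presentation right of 0 in 13 of 14 (median 0.24).

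**Figure D5:**
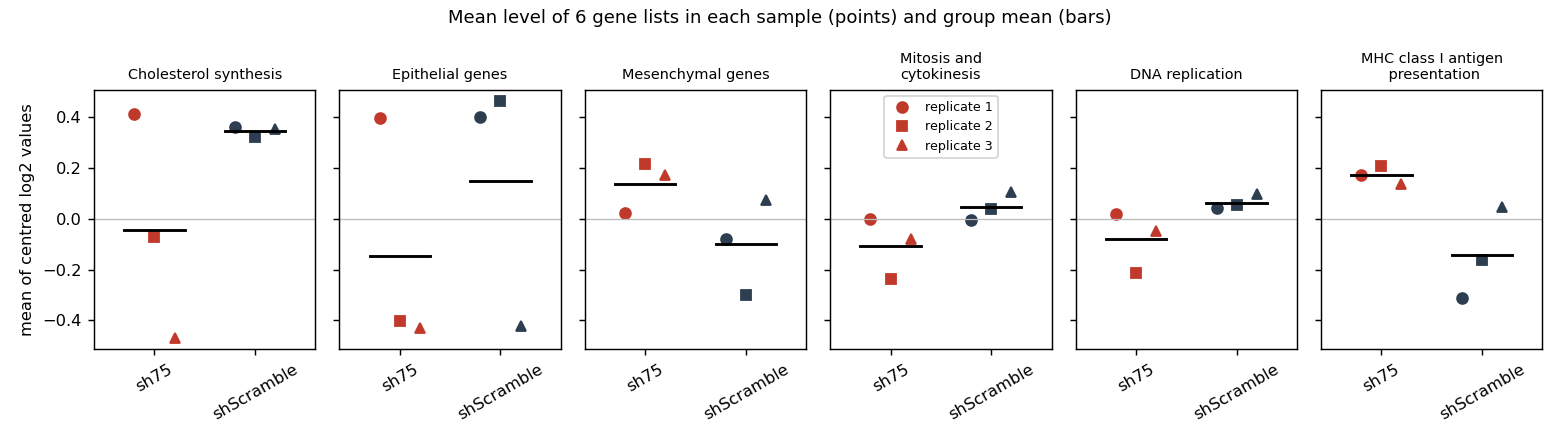
Mean of centred log2 values over the members (y axis) of 6 gene lists in each sh75 and shScramble sample (points, with shapes for replicate numbers, which pair no samples) and group mean (bars). The groups are apart for DNA replication and for MHC class I antigen presentation, while for cholesterol synthesis sh75 replicate 1 lies above the shScramble samples, at 0.41, and the other 2 below them.

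Factors that act with or after deadenylation held no calls. Among 28 measured RNA-binding proteins that recruit deadenylases 12 had higher values and 16 lower (median -0.01, and 0.03 without sh75 replicate 1). Zfp36l2, an AU-rich element binding protein, had 11.32, 11.51 and 11.12 in sh75 samples and 10.98, 11.01 and 10.97 in shScramble samples (change 0.33, adjusted p = 0.583). Of 9 deadenylases outside the complex, 7 had lower values, and Pan2, of the Pan2-Pan3 deadenylase, was higher without overlap (change 0.36, adjusted p = 0.546). Decapping, exosome and nonsense-mediated decay factors had lower values in 24 of 35 cases (median -0.09, and -0.06 without sh75 replicate 2), with the exosome subunit Exosc4 lower without overlap (-0.29, adjusted p = 0.438). Among 37 immediate early and AU-rich transcripts, which are rapidly decayed, 22 had lower values (median -0.10, and 0.01 without sh75 replicate 1). Il1a is 1 of these, and Myc had 10.88, 10.93 and 11.48 in sh75 samples and 11.79, 11.88 and 11.45 in shScramble samples (change -0.61, adjusted p = 0.567).

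Mitochondrial ribosomal proteins had lower values in 46 of 56 cases (median -0.15), with 8 lower and 3 higher without overlap, beside 6.76% lower and 6.71% higher over all probe sets. Mrps33 lay at 8.27, 7.91 and 7.90 in sh75 samples and at 8.51, 8.54 and 8.39 in shScramble samples (change -0.45, adjusted p = 0.370), and Mrps6 at 11.29, 10.88 and 11.03 against 10.50, 10.75 and 10.73 (change 0.41, adjusted p = 0.488). The list level overlapped, and its median was -0.05 without sh75 replicate 2. Amino acid response genes of ATF4 had lower values in 23 of 33 cases (median -0.16, and -0.08 without sh75 replicate 2 and -0.10 without shScramble replicate 1), although the neutral amino acid transporter Slc1a4 was higher without overlap (change 0.77, adjusted p = 0.297). Redox genes of the NRF2 program had higher values in 18 of 27 cases (median 0.11, and 0.02 without sh75 replicate 3 and 0.03 without shScramble replicate 1). Catalase, Cat (change 0.38, adjusted p = 0.474), and the lipid peroxidase Gpx4 (0.31, adjusted p = 0.495) lay apart between the groups, and 0 of these 3 lists' members were called.

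Markers of other cell types that a culture could hold were measured in the same samples, and their summed levels overlapped between the groups. Of 14 immune markers 5 lay above the olfactory limit. The summed linear intensity of all 14 was 639 to 883 in sh75 samples and 638 to 832 in shScramble samples. Of 10 endothelial markers 7 lay above it, with sums of 1325 to 1813 in sh75 samples and 1174 to 1382 in shScramble samples. Such sums weigh the brightest members most. Among immune markers these were Cd68 (group means 8.11 with sh75 and 8.27 with shScramble) and Csf1r (6.43 and 6.53). Among endothelial markers it was Eng (10.20 and 9.88). For 9 myoepithelial markers, 8 above the limit, the sums were 442 to 529 in sh75 samples and 453 to 779 in shScramble samples, and for 8 adipocyte markers, 7 above it, 399 to 518 in sh75 samples and 418 to 439 in shScramble samples. Their part in the results was not tested. The 13767 probe sets with several symbols or none were fitted apart by limma, where 0 were called and 746 had an unadjusted p under 0.05.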

How the data were processed

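The authors ran RMA from oligo on the scanner files (background correction, quantile normalization, probe summary), and these deposited log2 values were used as they stood. Versions were not given in the sources used here. No array was dropped and 0 columns were left out. GEO's platform annotation gave 1 symbol to 21789 probe sets (19938 genes, 999 with several probe sets, of which the one with the highest mean stood for the gene), several to 1621 and none to 12146. Entrez identifiers of 21698 were found in a RefSeq table of GRCm38.p6 and 0 symbols changed.

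All 14 samples in 5 groups were fitted in 1 model in limma 3.58.1 (R 4.3.3; lmFit, eBayes, 9 residual and 2.09 prior degrees of freedom), since 6 arrays alone leave few. Tests were two-sided with Benjamini-Hochberg adjustment over the 21789 probe sets. The script was tested on simulated data. Guide sequences came from the study's oligonucleotide list, and microRNAs from RefSeq. The number of arrays limits the precision.

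The members and 48 gene lists were chosen with earlier results of these data known. Named were Cnot7, every call, the 5 probe sets of smallest p in each direction outside the threshold and the 3 largest changes in each direction (groups apart, higher mean at least 6), and up to 4 members of smallest p per list described, with other members by role where a list held a call. Krt18, Cdh1, Esrp1, Cldn7, Ptprc, Vim, Fn1, Zeb1 and Cdh2 were named as cell type markers. Tob1 and Btg4 were named to complete their list. Lists were described by counts and medians. The alternatives are given in the closing section.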

Additional observations from a re-analysis of the deposited data

Results flagged for a closer look

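The difference between the 2 hairpins itself was tested in the same limma model for the 20 genes called with sh75 against shScramble, and 13 of them differed at an adjusted p under 0.05. These genes were selected on the same sh75 samples, and sh74 had 2 arrays. Lower with sh75 than with sh74 were Gpr137b (-1.85), Arl15 (-1.81), Tmem170b (-1.74), Gpr137b-ps (-1.48), Eogt (-1.26), Mob1b (-1.06), Kat2b (-1.01), Hipk3 (-0.98), Dennd10 (-0.91) and Rbm41 (-0.78). Higher with sh75 were Epha1 (1.91), Stard5 (0.79) and Dnmt3a (0.64). The adjusted p-values ran from 0.000109 for Gpr137b to 0.0389 for Mob1b.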

How the results depend on the processing

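Of the 20 called genes, 0 changed direction under any alternative, and none stayed called under every one. The groups of all 20 were apart, so leaving out an array, the t-test or the 6 samples alone could not have reversed a direction. With the 6 sh75 and shScramble samples alone, 3 probe sets were called (1 higher, 2 lower), and Cnot7 changed by -2.29 (adjusted p = 0.0999). With the title number as a replicate block among all samples, 2 were called (0 higher, 2 lower), Hipk3 and Tmem170b, with Cnot7 at -2.24 (adjusted p = 0.262). With that block among the 6 samples, 0 were called by limma (1535 at an unadjusted p under 0.05), with Cnot7 at -2.30 (adjusted p = 0.441). Same-numbered deviations from the group mean correlated at 0.41, 0.59 and -0.03 between the groups, and those with different numbers at -0.48 to 0.19. The values 0.41 and 0.59 were the highest of these, and what same-numbered samples share was not tested. Within number 4 Cnot7 changed by -2.81 and within number 5 by -1.91, values chosen after seeing the data. Leaving out 1 array gave 6 to 22 calls, 0 to 5 higher and 5 to 17 lower, and a Cnot7 change of -2.53 to -2.03. The methods' t-test was run here with unequal variances on the 6 sh75 and shScramble samples. It gave 0 calls after adjustment (1093 of 21789 at an unadjusted p under 0.05, Cnot7 -2.29, adjusted p = 0.862). At the unadjusted threshold of 0.01 it gave 177 of 21789, 91 higher and 86 lower. With trended and robust priors 19 were called (3 higher, 16 lower), and over all 35556 probe sets 14 were called (5 higher, 9 lower). Leaving out dim probe sets gave 23 calls (6 higher, 17 lower), and centring the arrays on the median gave 23 (5 higher, 18 lower). Of 30 list medians, 8 changed sign without 1 array, all with medians between -0.10 and 0.09. Cnot6l ranged from -0.017 without shScramble replicate 2 to 0.12 without shScramble replicate 1. The causes of these changes were not tested. The number of arrays and, for dim genes, signal near the olfactory limit bound what can be called.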
